A study of Rattus norvegicus with 47 samples.

Results

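The enzymes described here are the cytochrome P450s, the alcohol and aldehyde dehydrogenases and the aldo-keto reductases of the rat testis. With them are the 3-beta- and 17-beta-hydroxysteroid dehydrogenases, the UDP-glycosyltransferases, the sulfotransferases and the carboxylesterases. They were chosen by gene symbol alone: every array probe with 1 symbol that begins with Cyp and a number (Cyp51 left out), Ugt, Sult, Aldh, Adh and a number, Akr, Hsd3b, Hsd17b or Ces. This gave 121 probes for 113 genes, of 20500 probes with values, of which 12736 carry 1 symbol, for 9645 genes. RNA came from the right testis of 47 male Sprague-Dawley rats aged 90 days, 1 array per animal, each hybridised together with a pooled reference RNA of the rat. Treated animals had received 650 mg/kg of methoxyacetic acid (MAA) into the abdominal cavity and control animals saline, and both were killed 4, 8, 12 or 24 h later. Each of the 8 groups held 6 animals, except the saline group of 4 h with 5. The samples were pieces of whole testis, so germ cells, Sertoli cells, Leydig cells and other cells were measured together.

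Cytochrome P450s are haem enzymes that insert oxygen into a substrate with electrons from a reductase partner. Some families clear drugs and other foreign compounds, mainly in the liver, and others build or degrade steroids, bile acids, vitamin D and retinoic acid. Dehydrogenases and aldo-keto reductases interconvert alcohols with aldehydes or ketones, transferases attach glucuronic acid or sulfate, and carboxylesterases split esters. In the testis the Leydig cell makes testosterone from cholesterol with Cyp11a1, Cyp17a1 and hydroxysteroid dehydrogenases, while Sertoli and peritubular cells degrade retinoic acid with Cyp26 enzymes. MAA itself is made in the body from the solvent ethylene glycol monomethyl ether by alcohol and aldehyde dehydrogenases. Here MAA was given directly.

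All signed values take the channel headed Cy3 in the array files as testis. The labels of the samples give Cy5 to the testis instead, and if they were right each sign given here would be the opposite. In the Cy3 channel the 5 spermatocyte marker probes stood above the array's median ratio, with a median log2(Cy3/Cy5) of 1.31 and a list median above 0 on 47 of 47 arrays. The 11 spermatid probes did so as well (0.63, above 0 on 47 of 47), and the 6 peritubular myoid probes stood at -2.07, above 0 on 0 of 47 arrays. The lists of rarer testis cells stood lower, the 15 Sertoli probes at 0.11 (36 of 47), the 3 Leydig probes at -0.26 (2 of 47) and the 10 spermatogonial probes at -0.32 (4 of 47), so the direction rests on the spermatocyte and spermatid lists. The file of the MAA animal 27 of 12 h holds the same Cy5 intensities as that of the MAA animal 15 of 8 h, so at least 1 of the 2 ratios divides by the reference channel of another array. The called enzymes of 12 h are therefore also given without animal 27, and at 8 h 0 members were called with or without animal 15. The deposited table of the series was not used, because 39 of its 47 columns equal the ratios of another array.

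Each level is M, the log2 ratio of testis over reference after loess normalization within the array. A difference of 1 in M is a doubling, and M compares testis with reference for 1 probe, so it gives no order of amounts between genes. The submitters' background flag marks a probe as above background on an array, and it acts as a limit on the Cy3 channel on 47 of 47 arrays. Of the 121 probes, 37 were above background on all 23 saline arrays (30.6%, against 30.6% of all probes), and Cyp7b1 was on no array. A further 12 were above background on only 1 or 2 saline arrays. No background was subtracted, so a probe that is dim in both channels gives a ratio near 0.

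In saline testis the enzymes whose level passed the limits given next were more often lower than the reference than higher. A probe was called where its mean M over 23 saline arrays differed from 0 with a Benjamini-Hochberg adjusted p under 0.05 (limma, hybridisation date as a random block) and reached 1 or -1. Of the 121 probes 24, for 23 genes, were lower than the reference and 1 was higher. Of all probes 7.89% were called lower and 3.05% higher. Of the 24 lower probes 10 were above background on all 23 saline arrays. The other 96 members did not pass both limits, and many of their means lay above 0. The median level of a class was between -1.33 (P450s of family 4) and 0.23 (alcohol dehydrogenases). All arrays had the same dye orientation, so a dye bias of a probe is part of its level. In these levels it cannot be told apart from a difference in RNA.

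The 1 higher member was Cyp1b1, a P450 of steroid-producing tissues that hydroxylates oestradiol and foreign hydrocarbons. Its M was lowest at 0.52, had a median of 1.05 and was highest at 1.56 over the saline animals, with a mean of 1.02 ± 0.26 (SD, n = 23). Cyp17a1, the 17-alpha-hydroxylase and lyase of androgen synthesis, ranged from 0.18 to 1.70 with a mean of 0.85 ± 0.34 (SD, n = 23). Both were above 0 in 23 of 23 saline animals, and Cyp17a1 did not reach the limit of 1. Other members with a mean M above 0 and a signal above background on all saline arrays were Cyp26b1, which degrades retinoic acid (0.54 ± 0.19), and Cyp4f4, a fatty acid hydroxylase (0.54 ± 0.25). The list goes on with Akr1b1, the aldose reductase (0.49 ± 0.26), Akr1e2 (0.49 ± 0.29 and, by its other probe, 0.17 ± 0.17), Aldh1a2, which makes retinoic acid (0.36 ± 0.17), and the carboxylesterase Ces2e (0.32 ± 0.25).

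Among members above background on all saline arrays, Akr7a3, a reductase of aflatoxin aldehyde in the rat, had the lowest mean ratio. Its M ranged from -3.57 to -2.09 with a mean of -2.87 ± 0.34 (SD, n = 23), a level 7.29-fold below the reference. Other low ratios were those of a probe of Aldh7a1, which acts in lysine breakdown (-1.95 ± 0.13), Akr1a1, a reductase of aldehydes (-1.88 ± 0.22), and a probe of the drug-metabolising Cyp2d2 (-1.86 ± 0.20). Hsd17b10 and Hsd17b4, mitochondrial and peroxisomal enzymes of fatty acid oxidation, were at -1.82 ± 0.27 and -1.45 ± 0.22. Aldh2, the mitochondrial enzyme that clears acetaldehyde, was at -1.61 ± 0.27 and Cyp4b1 at -1.58 ± 0.21. The reference channel was saturated on 6 of 23 saline arrays for Aldh2 and on 6 for Akr1a1, where the ratio is only an upper limit, and the means over the other 17 arrays were -1.75 ± 0.15 and -1.93 ± 0.20. All of these were below 0 in 23 of 23 saline animals. Ratios under that of Akr7a3 came from 4 probes that were above background on only some saline arrays. These were the fatty acid hydroxylases Cyp4a8 (-3.14 ± 0.43, above background on 21 of 23) and Cyp4a3 (mean -5.13, 5 of 23), a probe of Cyp2c23 (-3.92 ± 0.38, 19 of 23) and Akr1c13 (mean -3.24, 8 of 23). Where the testis signal was not above background the ratio is only an upper limit, so for Cyp4a3 and Akr1c13 the mean gives no exact level or place.

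The probes of 1 gene did not always give the same ratio, so a level belongs to the probe. Cyp2d2 stood at -1.86 by probe 17708 and at 0.06 by probe 12566, and Aldh7a1 at -1.95 by probe 9965 and at -0.19 by probe 7026. The Cyp2c, Cyp2d, Cyp3a and Akr1c families hold near-identical copies, and a probe may bind more than 1 of them. By class, the lower calls were 6 of 16 aldo-keto reductase probes, 5 of 30 P450s of families 1 to 3, 4 of 7 of family 4, 4 of 9 sulfotransferases, 2 of 18 aldehyde dehydrogenases, 2 of 11 hydroxysteroid dehydrogenases and Cyp20a1. Among the 5 P450s of steroid synthesis, the 4 alcohol dehydrogenases, the 5 UDP-glycosyltransferases and the 8 carboxylesterases 0 were called. Between the 4 saline groups 0 members passed an F test over the times of killing (smallest adjusted p 0.474, for Sult1d1; 9 members at an unadjusted p under 0.05), where 0.00488% of all probes passed and 7.32% did so unadjusted.

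**Figure D1:**
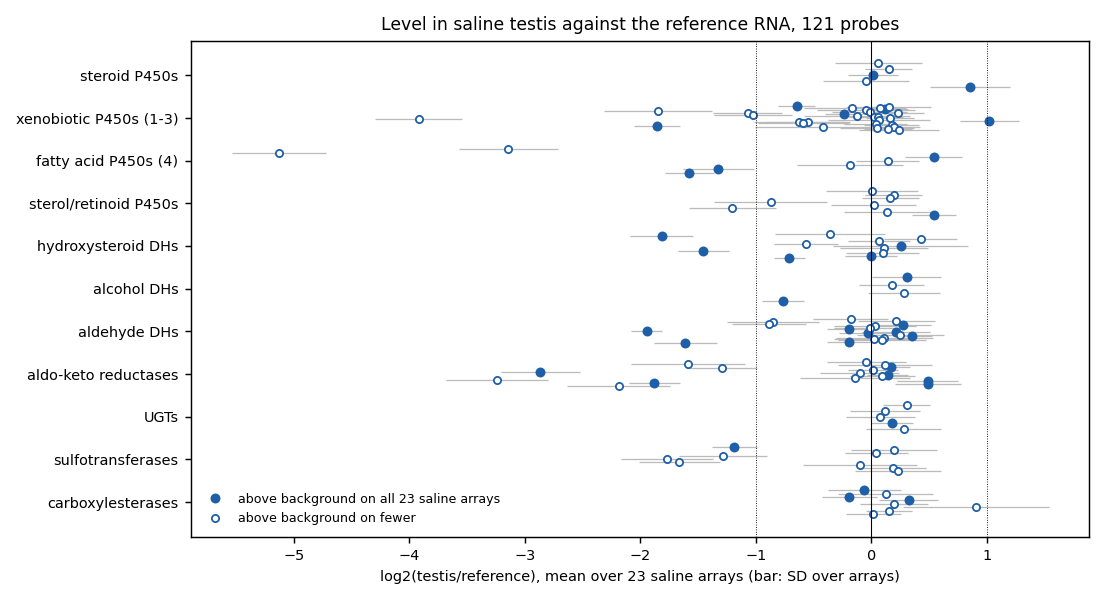
Level of the 121 enzyme probes in saline testis, by enzyme class. The horizontal axis is the mean log2 ratio of testis over reference over 23 saline arrays, bars are SDs over the arrays, filled points were above background on all 23 arrays, and dotted lines mark -1 and 1. Most points lie near 0, Cyp1b1 lies beyond 1 and 24 points lie beyond -1.

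MAA changed few of these enzymes, and in the fit used here every change that passed the test was a rise at 12 or 24 h. Under some other settings falls of Hsd17b8 at 24 h and of Sult1c3 at 12 h passed as well. The change is the difference in M, MAA minus saline, fitted for each probe with limma on all 47 arrays with the hybridisation date as a term, and a call is an adjusted p under 0.05 over all 20500 probes of the comparison. At 4 h and at 8 h 0 members were called (7 and 10 at an unadjusted p under 0.05), where 0.0195% and 0.00976% of all probes were called and 7.4% and 7.11% were under the unadjusted limit. At 12 h 5 members were higher and 0 lower (4.13%), beside 2.54% of all probes called, 1.69% higher and 0.844% lower (21 members and 14.7% of all probes at an unadjusted p under 0.05). At 24 h 3 members were higher and 0 lower (2.48%), beside 2.99% called, 2.25% higher and 0.737% lower (18 members and 14.3% unadjusted). These shares are near those of all probes, so the number of calls sets the enzymes apart at neither time. The median change of the 121 members was 0.01 at 12 h and 0.02 at 24 h, against 0.04 and 0.02 for all probes.

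Without animal 27 the count at 12 h was 6, with Aldh7a1 lost, Cyp2d4 gained as higher and Sult1c3 gained as lower. The 8 called members are Akr7a3, Adh5, Hsd17b11, Aldh7a1 and Akr1b1 at 12 h and Cyp2d4, Aldh2 and Cyp1b1 at 24 h. All 8 were above background on all 47 arrays. The changes were between 0.43 and 0.63. The fit was also run on 20500 simulated probes with normal noise of each probe's spread and no date effect. At 12 h 100 of them were changed by 0.5 and another 100 by 1. The fit recovered 20 and 78 of these, and 9 unchanged probes were called beside them (8.41% of 107 calls). Recovery depends on the share of probes that change, which is not known for the data. These counts therefore do not give the chance of a call for the enzymes. The calls depend on the normalization. With each array centred on its median in place of loess, 0 members passed at 12 h and 0 at 24 h, and with the authors' deposited ratio 1 (Akr7a3) and 0. Over all probes the share of calls that were higher was 66.7% at 12 h and 75.3% at 24 h here, 18.3% and 10.4% under median centring, and 32.5% and 43.7% by the deposited ratio. In a piece of whole testis, a larger share of the cells that hold an enzyme and more of its RNA per cell cannot be told apart.

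**Figure D2:**
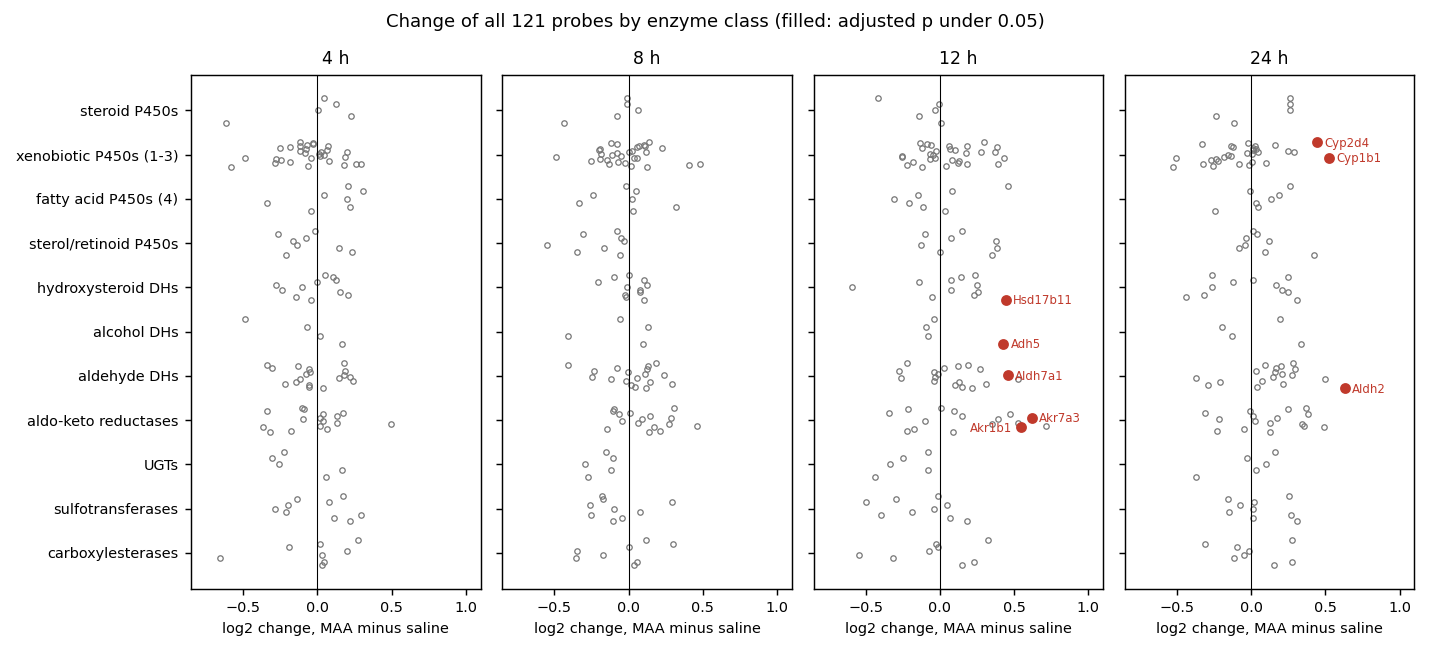
Change of all 121 enzyme probes by class at each time. The horizontal axis is the log2 change, MAA minus saline, each point is a probe, and filled points have an adjusted p under 0.05 over 20500 probes. No point is filled at 4 and 8 h, 5 are filled at 12 h and 3 at 24 h, all to the right of 0 (Cyp2d4 is at -0.01 under median centring and at -0.06 by the testis channel alone).

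Some markers of the testis cell types were also called at 12 or 24 h. Of the 5 spermatocyte probes, those of the meiotic chromosome proteins Sycp1 (-0.99), Sycp2 (-0.66) and Sycp3 (-0.63) fell at 12 h. The mean level over that list was between 0.64 and 1.15 in the MAA animals of 12 h and between 1.16 and 1.56 in the saline animals. At 24 h it was between 0.77 and 1.13 against 0.94 and 1.48, with 0 of 5 probes called. Of 15 Sertoli probes 2 rose at 12 h (Inha and Aqp8) and Aqp8 at 24 h, of 11 spermatid probes 2 rose at 12 h, and of 6 myoid probes 2 rose at 12 h and 1 at 24 h. Of the 3 Leydig probes Star and Hsd11b1 rose at 24 h. The mean of this list was between -0.03 and 0.19 after MAA against -0.74 and -0.18 in saline animals. Star was above background on only 4 of 6 saline arrays of 24 h, so that saline mean is not exact. Of 10 spermatogonial probes 1 rose at each of these times, and of 4 blood and 4 epididymis probes 1 each rose at 24 h. Macrophage, endothelial and liver lists had 0 calls. Of all probes 2.54% were called at 12 h and 2.99% at 24 h. All these calls come from the loess fit, and other normalizations are not given here for the marker calls. Under median centring 18.3% and 10.4% of the calls over all probes were higher. No marker with a probe was below background on every array, but many defining markers had no probe. Only 3 of 6 Leydig genes (not Insl3, Lhcgr or Nr5a1) and 5 of 12 spermatocyte genes had one. Of the 10 spermatogonial probes, 4 were above background on no saline array of 12 h and 5 on none of 24 h. The part of these cells in the rises of the enzymes was not tested.

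The aldo-keto reductases gave 2 of the 5 calls at 12 h. For Akr7a3 the lowest, median and highest M were -3.57, -3.01 and -2.71 in the saline animals of 12 h and -2.66, -2.48 and -1.95 in the MAA animals. The groups did not overlap, which was so for 2 of 121 members at 12 h, beside 3.02% of all probes. At 4 and 8 h it was so for 1 member each, beside 0.663% and 0.659%. The rise was 0.62 ± 0.15 (SE), 1.54-fold, with an adjusted p of 0.0218 (limma). At 4, 8 and 24 h the differences were 0.01, 0.28 and 0.18, not called. Its change was 0.45 and 0.90 within the 2 hybridisation dates that held both groups, and 0.65 without animal 27. The call was lost without the saline animal 25, the saline animal 29 or the MAA animal 36 of 12 h, with changes no lower than 0.49.

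Akr1b1 reduces glucose to sorbitol and also reduces aldehydes made from lipids. Its M was 0.12, 0.42 and 0.82 in the saline animals of 12 h (lowest, median, highest) and 0.73, 0.99 and 1.17 after MAA. In 4 of 6 MAA animals it lay above every saline animal. The rise was 0.55 ± 0.15 (SE), 1.46-fold, with an adjusted p of 0.0454 (limma), close to the limit: leaving out any of 25 of the 47 arrays, 10 of them among the 12 arrays of 12 h, ended the call, with changes of 0.45 or more in all 47 fits. Without animal 27 it was 0.62 (adjusted p 0.0210). At 24 h Akr1b1 stood 0.49 ± 0.14 higher and missed the limit (adjusted p 0.0514). At 4 h it stood 0.37 lower, with M of 0.58, 0.58, 0.60, 0.86 and 1.07 in the 5 saline animals and 0.14, 0.37 and 0.68 (lowest, median, highest) in the MAA animals (adjusted p 0.575).

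In this fit the response of Akr1b1 also differed between times, close to the limit and not under most other settings. The change at 12 h minus that at 4 h was 0.91 ± 0.20 (SE, adjusted p 0.0468, limma), and the change at 24 h minus that at 4 h was 0.86 ± 0.20 (adjusted p 0.0469). Cyp2d4 gave the other such difference, 0.56 ± 0.13 between 24 h and 4 h (adjusted p 0.0485), which turned to -0.29 under median centring and to -0.35 by the testis channel alone. These were 1 of 121 members for 12 h against 4 h and 2 for 24 h against 4 h, beside 0.215% and 0.322% of all probes. Leaving out 1 array ended these differences in 31, 36 and 42 of 47 fits. The differences of Akr1b1 were called in 2 and 3 of 9 other settings. By the testis channel alone they were 0.63 and 0.43 (adjusted p 0.165 and 0.275). Both also missed the limit with the date as a random block (adjusted p 0.0510 and 0.0623) and with no date term (0.0825 and 0.0953). So they did under median centring (0.0708 and 0.0767) and by the deposited ratio (0.0523 and 0.0511). Without animal 27 the first was 1.00. The F test over all 4 times passed for 0 members (smallest adjusted p 0.0738, for Akr1b1; 17 members unadjusted), beside 0.127% of all probes and 11.1% unadjusted.

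Of the other aldo-keto reductases, Akr1c13, of a family that reduces ketones of steroids and of foreign compounds, was not called at 12 h. It was above background on 2 of 6 saline arrays and 6 of 6 MAA arrays of that time, so its saline values are partly limits and its difference is not exact. Its M was -3.94, -3.52 and -2.96 in saline animals (lowest, median, highest) and -3.20, -2.83 and -2.36 after MAA. The groups overlapped, and the fitted difference of 0.71 ± 0.21 (SE) had an adjusted p of 0.0522 (0.66 and 0.0938 without animal 27). In all, 7 of 16 probes of the class were at an unadjusted p under 0.05 at 12 h, beside 14.7% of all probes, and 11 of 16 changes were above 0, beside 56.3% of all probes, with a median of 0.12. Nothing particular to the class is read from these counts. Akr7a2, of the same subfamily as Akr7a3, was at 0.47 (adjusted p 0.151). Of the 16 probes 0 were called lower. The lowest change was that of Akr1e2, -0.34 by probe 5085 (adjusted p 0.201) and -0.22 by probe 20931 (adjusted p 0.591).

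For the promoter of 6 of the 8 called members and of 90 member genes in all, RefSeq gives the sequence from 250 bases before to 50 bases after the annotated start (build GRCr8). Those of 4 of these called members are shown, 5′ to 3′ on the strand of the gene, and Cyp1b1 and Cyp2d4 among them belong to the same class. Both strands were searched for TGACNNNGC, the core of the antioxidant response element, for TNGCGTG, the core of the dioxin response element, and for CAAGGTCA, a site of NR5A receptors, and matches are in capitals.
Akr7a3 (chr5:156876471-156876770, plus strand): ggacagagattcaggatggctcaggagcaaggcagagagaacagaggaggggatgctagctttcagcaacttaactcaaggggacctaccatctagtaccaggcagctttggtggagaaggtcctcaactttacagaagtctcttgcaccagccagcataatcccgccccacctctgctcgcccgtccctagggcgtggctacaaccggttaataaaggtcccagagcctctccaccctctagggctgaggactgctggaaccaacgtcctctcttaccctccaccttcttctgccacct
Hsd17b11 (chr14:6016440-6016739, plus strand): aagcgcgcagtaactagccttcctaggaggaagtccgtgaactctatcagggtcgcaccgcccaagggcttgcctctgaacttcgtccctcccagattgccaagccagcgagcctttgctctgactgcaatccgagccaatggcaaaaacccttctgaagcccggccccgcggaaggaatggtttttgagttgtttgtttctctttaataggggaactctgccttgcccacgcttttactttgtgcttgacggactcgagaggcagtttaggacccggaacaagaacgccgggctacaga
Cyp1b1 (chr6:21094315-21094614, plus strand): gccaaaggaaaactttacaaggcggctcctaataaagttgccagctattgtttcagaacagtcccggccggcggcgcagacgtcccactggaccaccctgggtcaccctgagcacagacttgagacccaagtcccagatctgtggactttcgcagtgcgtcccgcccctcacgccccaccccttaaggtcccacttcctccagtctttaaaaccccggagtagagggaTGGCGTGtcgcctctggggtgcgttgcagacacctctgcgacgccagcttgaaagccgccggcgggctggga
Cyp2d4 (chr7:115771772-115772071, minus strand): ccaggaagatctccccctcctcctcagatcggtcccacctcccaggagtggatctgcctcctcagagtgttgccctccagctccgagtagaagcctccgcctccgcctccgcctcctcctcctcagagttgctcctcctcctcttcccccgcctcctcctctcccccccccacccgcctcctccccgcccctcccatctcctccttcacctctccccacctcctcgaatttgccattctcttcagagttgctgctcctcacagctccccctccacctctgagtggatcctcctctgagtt
The 1 match among the 6 called members, so that no motifs overlap there, was a dioxin response element core in Cyp1b1, which begins at position -22 from the start. TNGCGTG is found in 5.12% of 27457 promoters of this length and in 6 of the 90 member promoters (6.67%). TGACNNNGC is in 12.2% of all and 10 of 90 (11.1%), and CAAGGTCA in 1.48% of all and 2 of 90 (2.22%).

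Among the alcohol dehydrogenases, Adh5 was called. It oxidises formaldehyde bound to glutathione and reduces nitrosoglutathione, and is found in nearly all tissues. Its M was -1.16, -0.86 and -0.66 in the saline animals of 12 h (lowest, median, highest) and -0.72, -0.50 and -0.22 in the MAA animals, of which 5 of 6 lay above every saline animal. The rise was 0.43 ± 0.11 (SE), 1.35-fold (adjusted p 0.0262, limma), and 0.45 without animal 27. At 24 h the difference was 0.33 (adjusted p 0.0676). The other 3 alcohol dehydrogenases, Adh1c, Adh4 and Adh7, were called at no time, and Adh4 and Adh7 were above background on only 2 of 47 arrays. With the testis channel alone the change of Adh5 was 0.18 (adjusted p 0.556), and leaving out the saline animal 25, 26 or 49 or the MAA animal 28 or 36 of 12 h ended the call, with changes between 0.36 and 0.49 over the 47 fits.

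Of the 18 aldehyde dehydrogenase probes, 1 rose at 12 h and 1 at 24 h. Aldh2 had M of -2.00, -1.76 and -1.51 in the saline animals of 24 h and -1.55, -1.16 and -0.65 in the MAA animals (lowest, median, highest), 5 of 6 above every saline animal. The rise was 0.63 ± 0.15 (SE), 1.55-fold, with an adjusted p of 0.0124 (limma). In the MAA animal 39, which gave the highest value, the reference channel was saturated, so that ratio is only an upper limit. Without this animal the rise was 0.53 (adjusted p 0.0422), and it was called in 47 of 47 fits that each left out 1 array. At 4, 8 and 12 h its changes were 0.04, 0.12 and 0.22, none of them called. Within the 2 dates that held both groups of 24 h the change was 0.51 and 0.73, and with median centring it was 0.30 (adjusted p 0.560). At 24 h 15 of the 18 changes in this class were above 0 (83.3%), beside 54.0% of all probes, with a median of 0.16. Among all members above background on every array it was 25 of 30 (83.3%, median 0.20). Nothing particular to the class is therefore read from this count.

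Aldh7a1, known for its part in lysine breakdown, rose at 12 h by probe 9965. M was -2.15, -2.04 and -1.70 in saline animals and -1.77, -1.52 and -1.35 after MAA (lowest, median, highest). The rise was 0.46 ± 0.12 (SE), 1.37-fold, with an adjusted p of 0.0381 (limma). The other probe of the gene, 7026, changed by -0.01 (adjusted p 0.984) and was also above background on all 47 arrays, so the gene as a whole has no single answer. Without animal 27 the change of probe 9965 was 0.45 and not called (adjusted p 0.0561). It was 0.57 within a date with 2 MAA and 2 saline animals and 0.06 within a date with 1 and 2, and leaving out any of 10 of the 12 arrays of 12 h ended the call. Aldh3a2, which oxidises fatty aldehydes, was at -0.37 at 24 h (adjusted p 0.139). The retinoic acid enzymes Aldh1a1, Aldh1a2 and Aldh1a3 were called at no time, with Aldh1a3 at 0.52 at 12 h (adjusted p 0.288) and Aldh1a2 at -0.04 (0.925).

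**Figure D3:**
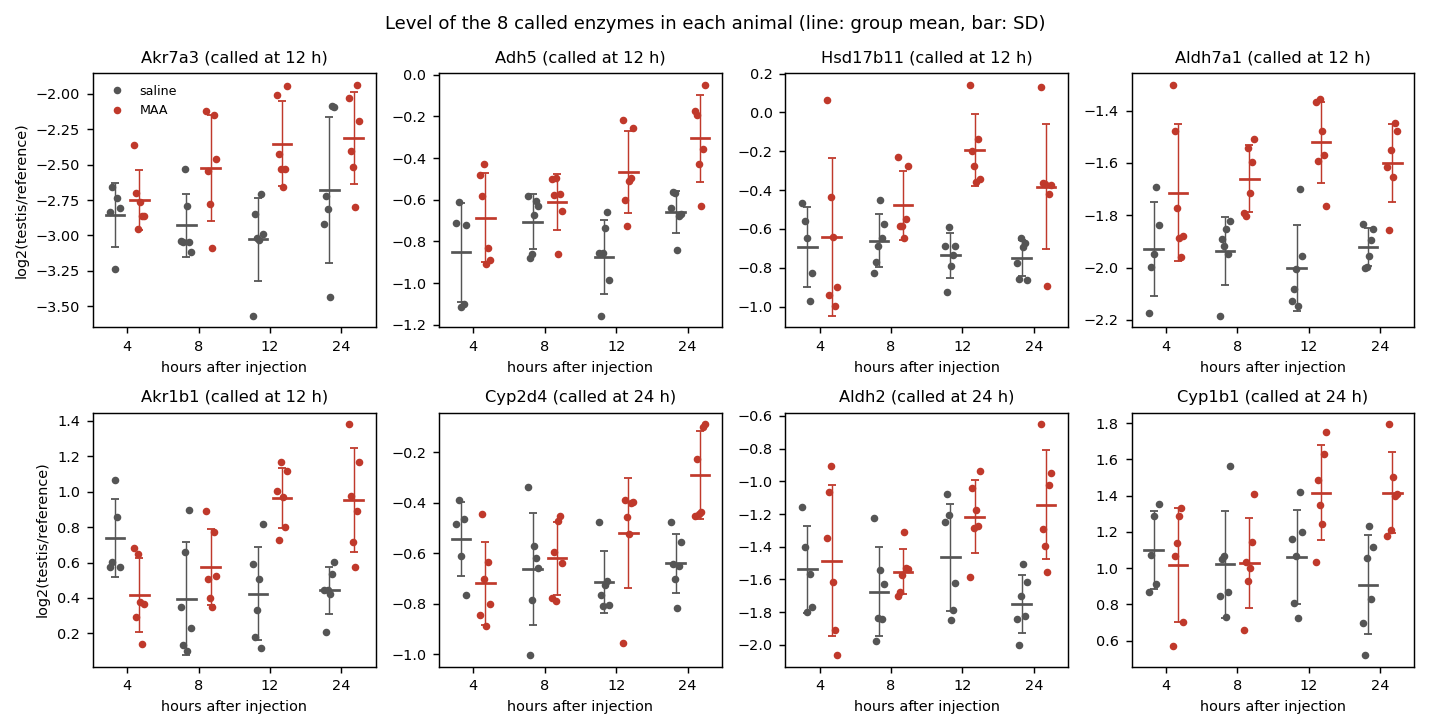
Level of the 8 called enzymes in each animal. The vertical axis is the log2 ratio of testis over reference, the horizontal axis the 4 times in order (not to scale), grey points are saline and red points MAA animals, lines are group means and bars SDs. Akr7a3 and Hsd17b11 at 12 h and Cyp2d4 at 24 h show no overlap of the groups, the other 5 overlap, and Cyp2d4 loses its rise under median centring (-0.01) and by the testis channel alone (-0.06).

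Hsd17b11 was the 1 hydroxysteroid dehydrogenase called of 11 probes. It oxidises the 17-beta-hydroxyl group of steroids and is found on lipid droplets. M was -0.93, -0.71 and -0.59 in the saline animals of 12 h and -0.36, -0.24 and 0.14 in the MAA animals (lowest, median, highest), with no overlap. The rise was 0.44 ± 0.11 (SE), 1.36-fold (adjusted p 0.0288, limma), and 0.48 without animal 27. It was 0.52 and 0.37 within the 2 dates that held both groups, and 0.31 at 24 h (adjusted p 0.119). Leaving out the saline animal 26 or 30 or the MAA animal 28, 31 or 36 of 12 h ended the call, with changes between 0.37 and 0.49 over all fits. Hsd17b8, an enzyme of mitochondrial fatty acid synthesis, was at -0.44 ± 0.14 at 24 h (SE, adjusted p 0.0753, limma). In 3 of 9 other settings it was called as a fall, with an adjusted p as low as 0.00725. These were the testis channel alone, scale normalization between arrays and the filter on dim probes. Over the 9 settings its change was between -0.54 and -0.33.

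The enzymes that make testosterone were not called at any time. Cyp17a1 had M of 0.64, 0.87, 0.95, 1.09 and 1.70 in the 5 saline animals of 4 h and of -0.00, 0.45 and 0.79 (lowest, median, highest) in the MAA animals. The change was -0.62 ± 0.20 (SE, adjusted p 0.452) and it was -0.43 at 8 h, 0.01 at 12 h and -0.11 at 24 h. Within the 2 dates of 4 h with both groups it was -0.40 and -0.45. Cyp11a1, which cuts the side chain of cholesterol, had changes between -0.03 and 0.26 over the 4 times (adjusted p 0.281 at 24 h), and the last value turned to -0.16 under median centring and to -0.06 by the testis channel alone. Hsd17b3, which makes testosterone from androstenedione, changed by between -0.24 and 0.21, and it was above background on 30 of 47 arrays.

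Hsd3b2, which turns pregnenolone into progesterone, changed by -0.59 ± 0.24 at 12 h (adjusted p 0.208). That value rests on 2 saline animals of 12 h, numbers 34 and 49, with M of 1.41 and 2.25. The other 4 saline animals of that time lay between -0.12 and 0.15 and the MAA animals between -0.32 and 0.33. Within 1 date of 12 h the change was 0.10 and within the other, which held 1 MAA and 2 saline animals, -1.73. Cyp19a1, the aromatase, and Cyp21a1 and Cyp11b1, known from the adrenal, were above background on 30, 23 and 32 of 47 arrays and were not called.

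Partners of steroid synthesis stood beside these enzymes with other results. Of 9 probes of the list, Nr0b1, a repressor of steroid-synthesis genes, rose at 12 h (0.67 ± 0.13, adjusted p 0.00364), but stood at 0.07 by the testis channel alone (adjusted p 0.935) and at 0.61 under median centring (adjusted p 0.0642). Without animal 27 it was 0.71. Star, which carries cholesterol into the mitochondrion, rose at 24 h (1.08 ± 0.24, adjusted p 0.00868). Star was above background on 6 of 6 MAA and 4 of 6 saline arrays of 24 h. Its saline values are therefore partly limits, and the size of its rise is not exact. Hsd11b1, which interconverts active and inactive glucocorticoid in Leydig cells, rose at 24 h (0.43 ± 0.12, adjusted p 0.0454). Star was at -0.43 at 4 h and -0.30 at 8 h (adjusted p 0.752 and 0.849), and neither was called. Whether the changes of these genes differ from those of Cyp11a1 or Cyp17a1 was not tested.

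**Figure D4:**
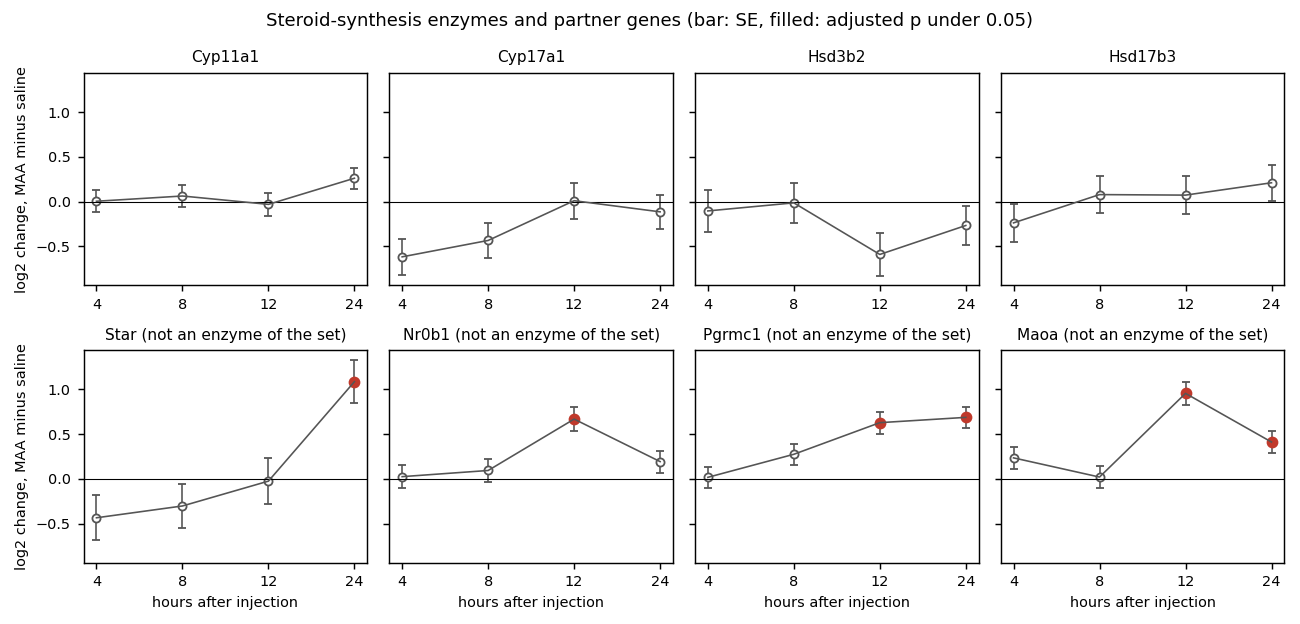
Change of 4 enzymes of testosterone synthesis and of 4 genes that are not enzymes of the set. The vertical axis is the log2 change, MAA minus saline, bars are SEs, filled points have an adjusted p under 0.05, and the times are in order, not to scale. The 4 enzymes have no filled point (Cyp11a1 at 24 h turns to -0.16 with median centring). Star is filled at 24 h, Nr0b1 at 12 h, and Pgrmc1 and Maoa at both 12 and 24 h. Star was above background on 4 of 6 saline arrays of 24 h, so its change there is not exact.

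Of the 30 probes of P450 families 1 to 3, 2 rose at 24 h and 0 at the other times. Cyp2d4, a member of the drug-metabolising Cyp2d family found in the rat brain, had the smallest p of all members. M was -0.82, -0.65 and -0.48 in the saline animals of 24 h and -0.45, -0.33 and -0.09 in the MAA animals (lowest, median, highest). The groups did not overlap, and this was so for 1 of 121 members at 24 h, beside 1.89% of all probes. The rise was 0.44 ± 0.09 (SE), 1.36-fold, with an adjusted p of 0.00573 (limma), and it was called in 47 of 47 fits that each left out 1 array. Under median centring it was -0.01, by the testis channel alone -0.06, and by the deposited ratio 0.28 (adjusted p 0.155). The changes at 4, 8 and 12 h were -0.11, 0.14 and 0.30, none called. Without animal 27, whose M of -0.96 lies apart from its group, the 12 h change was 0.36 and was called (adjusted p 0.0414). The changes within the 2 dates of 24 h were 0.34 and 0.51.

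Cyp1b1 rose at 24 h as well. M was 0.52, 0.94 and 1.23 in the saline animals and 1.18, 1.40 and 1.79 after MAA (lowest, median, highest), with 4 of 6 MAA animals above every saline animal. The rise was 0.52 ± 0.15 (SE), 1.44-fold, with an adjusted p of 0.0450 (limma). The call was lost under median centring (0.41, adjusted p 0.262), by the deposited ratio (0.47, adjusted p 0.121), by the processed channels and without the date term, and kept by the testis channel alone (0.54, adjusted p 0.00137). It was 0.43 at 12 h (adjusted p 0.154), -0.04 at 4 h and 0.06 at 8 h. Leaving out any of 20 of the 47 arrays, 7 of them among the 12 of 24 h, ended the call, with changes between 0.41 and 0.61. The related Cyp1a1 and Cyp1a2, which the dioxin receptor induces in liver, were above background on 20 and 12 of 47 arrays and were not called, with Cyp1a1 at 0.37 at 12 h (adjusted p 0.558).

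Other P450s of these families that clear drugs were dim or did not pass. Cyp2a1 was at -0.58 at 4 h (adjusted p 0.452) and was above background on 12 of 47 arrays. Cyp2t1 was at -0.49 at 4 h (adjusted p 0.507) and was above background on 11. The probes of Cyp3a2, Cyp3a9, Cyp3a18 and Cyp3a23-3a1 were called at no time. Cyp2e1, which oxidises ethanol and small solvents, changed by between -0.12 and 0.25 and was above background on 46 of 47 arrays.

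Genes that serve or induce the P450s were read from fixed lists. The first list held 6 probes of electron donors and other partners of P450s. Of these Pgrmc1, a haem-binding partner, rose at 12 h (0.63 ± 0.12, adjusted p 0.00364). It also rose at 24 h (0.69 ± 0.12, adjusted p 0.00068, but 0.39 and 0.342 under median centring). The other 5 probes were not called at 12 or 24 h, with the P450 reductase Por at 0.23 and 0.32. Of 19 probes of receptors and regulators that induce the enzymes, such as Ahr, Nr1i2, Ppara and Nfe2l2, 0 were called at any time. Nfe2l2, the regulator of antioxidant genes, was at 0.58 at 4 h by probe 8509 (adjusted p 0.284) and 0.26 by probe 16744. Of 21 probes of other drug-metabolising enzymes, the monoamine oxidase Maoa rose at 12 h (0.95 ± 0.13, adjusted p 3.62e-05, and 0.98 without animal 27) and 24 h (0.41 ± 0.12, adjusted p 0.0470). Nqo1, a quinone reductase, was at 0.46 at 24 h and not called (adjusted p 0.137).

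Of the 8 P450s of sterol, bile acid, vitamin D and retinoid metabolism 0 were called. Cyp26b1 came nearest: M at 24 h was 0.02, 0.50 and 0.77 in saline animals and 0.54, 0.88 and 1.27 after MAA (lowest, median, highest), a change of 0.43 ± 0.13 (SE, adjusted p 0.0573). It was 0.42 and 0.31 within the 2 dates, and its relative Cyp26a1 was above background on 4 of 47 arrays. Of 11 probes of retinoid partners, the receptor Rara rose at 12 h (0.63 ± 0.14, adjusted p 0.0114), with 0.61 without animal 27 and 0.53 under median centring (adjusted p 0.156). Cyp20a1, a P450 without an established substrate, was at 0.39 at 12 h (adjusted p 0.219). Cyp7b1 was not above background on any array and has no fold.

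The fatty acid P450s of family 4, the UDP-glycosyltransferases, the sulfotransferases and the carboxylesterases had 0 calls at each of the 4 times. In family 4, Cyp4a8 was at 0.46 at 12 h (adjusted p 0.203) and Cyp4f1 at 0.32 at 8 h (0.691). Ugt2b1, which glucuronidates steroids and drugs in the liver, was at -0.44 at 12 h (adjusted p 0.298) and above background on 15 of 47 arrays. All 5 probes of its class had changes under 0 at 12 h, where 56.3% of all probes were above 0. Of the 5, 0 were called, and Ugt8 was above background on only 5 of 47 arrays. Sult1c3 was at -0.50 at 12 h (adjusted p 0.0936), and without animal 27 at -0.62 (adjusted p 0.0188), which would make it a fall. Sult1e1, the oestrogen sulfotransferase known from Leydig cells, changed by between -0.04 and 0.11 and was above background on 21 of 47 arrays. Ces5a was at -0.54 at 12 h by probe 14140 (adjusted p 0.0805), above background on 9 arrays, and at -0.03 by probe 6485, above background on 27. Ces2e was at -0.35 at 8 h, the smallest p of any member at that time (adjusted p 0.607).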

How the data were processed

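Testis RNA of 47 rats was hybridised with a reference RNA on 47 arrays of 22573 spots. Per the file headers, the deposited raw columns are intensities of the channels Cy3 and Cy5, and the deposited ratio column is a log2 ratio that the authors normalized. Tools and settings of that step were not stated (not given in the sources used here). Of the spots, 2073 have no processed value and were left out, which leaves 20500. Loess was applied to the raw intensities array by array, without background subtraction, for which no column was used. The median testis intensity of an array was between 431 and 1749 units, 43.5% to 97.2% of probes stood above background, and the number of arrays limits the precision.

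The linear model (limma 3.58.1, R 4.3.3) held the 8 groups and 12 hybridisation dates (28 residual and 6.75 prior degrees of freedom). On 8 dates both treatments were hybridised, on 2 only MAA animals and on 2 only saline animals. The M of single animals, and so the overlap of groups, is not adjusted for the date. Differences of the MAA effect between each pair of times were contrasts of the same model. All p-values are two-sided, with Benjamini-Hochberg adjustment over 20500 probes. Saline levels were tested with the date as a random block (correlation 0.0617). Gene symbols are those of the platform's annotation, updated through a RefSeq table, in which 120 of 121 members matched (Sult1e1 did not). Promoters came from RefSeq. The fit was tested on simulated data.

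The members and lists were chosen with earlier results of these data known. Named are members called at any time, the 4 with the smallest p at each time, up to 3 per class and 5 per F test, the 8 highest and 8 lowest saline ratios among members above background on all saline arrays, and up to 2 genes per partner list. A few others (such as Cyp1a1, Cyp2e1, Cyp3a2, Hsd17b3, Aldh1a2, Akr7a2, Sult1e1, Por and Nqo1) were named for their known role, after their values were seen. Alternatives were other normalizations, the testis channel alone, other treatments of the date, filters on dim and saturated probes, the series table and leaving out each array.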

Additional observations from a re-analysis of the deposited data

Results flagged for a closer look

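Single animals stood apart from their group in 3 of 64 groups of 5 or 6 values of the 8 called members, where chance flags about 1 in 20. Aldh7a1 (probe 9965) was at -2.18 in the saline animal 13 of 8 h, with the nearest animal at -1.95. Cyp2d4 was at -0.96 in the MAA animal 27 of 12 h, an array whose reference channel equals that of another, with the nearest at -0.53. Cyp2d4 was at -0.48 in the saline animal 25 of 12 h, with the nearest at -0.71. The response differed between times in 3 tests of the difference itself. These were Akr1b1 between 12 and 4 h (0.91), Akr1b1 between 24 and 4 h (0.86) and Cyp2d4 between 24 and 4 h (0.56), each close to the limit of an adjusted p of 0.05 in limma.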

How the results depend on the processing

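No paired analysis was possible because no animal number recurs between groups. At 4 and 8 h, and between saline groups, 0 members were called under all 10 alternatives and in all 47 fits that left out 1 array. The series table is 1 of the 10. For MAA against saline it called 0 of 20500 probes at each time, so its counts of 0 say nothing about the members. The count of 5 at 12 h became 0 with median centring, 1 with the deposited ratio (Akr7a3), 0 with the processed channels, 3 with scale normalization between arrays, 0 with the series table and 8 (7 higher, the 5 among them) with the filter on dim probes. The count of 3 at 24 h became 0 with median centring, 0 with the deposited ratio, 0 with the processed channels, 7 with scale normalization (6 higher), 0 with the series table, 5 with the date as a random block and 7 (6 higher) with only the brighter probes. The lower call of 24 h under scale normalization and with only the brighter probes was Hsd17b8, and that of 12 h with the filter was Sult1c3. Leaving out 1 array gave 1 to 6 calls at 12 h and 2 to 7 at 24 h. The 12 h count was 1 without the saline animal 25 or 26 or the MAA animal 28 or 36 of 12 h, and the 24 h count was 7 without the MAA animal 44 of 24 h. For the F test between times the count was 2 with only the brighter probes (Cyp2d4 and Akr1b1) and 0 to 1 without 1 array. The count of 25 saline levels was between 19 and 26 under the other settings, 35 with a limit of 0.58 in place of 1, and 24 to 25 without 1 array.

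Over all probes, 347 of 520 calls at 12 h were higher (66.7%) and 461 of 612 at 24 h (75.3%). With median centring 28 of 153 (18.3%) and 20 of 193 (10.4%) were higher, with the deposited ratio 128 of 394 (32.5%) and 165 of 378 (43.7%), with the processed channels 129 of 362 (35.6%) and 152 of 354 (42.9%), and with the testis channel alone 224 of 461 (48.6%) and 557 of 1075 (51.8%). The cause was not tested. Cyp2d4 at 24 h became -0.015 under median centring and -0.059 by the testis channel alone, its difference between 24 and 4 h -0.29 and -0.35, Cyp11a1 at 24 h -0.16 and -0.061, and Sult1a1 at 24 h -0.0098 with median centring. With the series table as labelled, in which most columns hold another array's values, these signs turned: at 12 h Adh5 -0.17, Aldh7a1 -0.020, Akr1b1 -0.075, Akr7a3 -0.39, Hsd17b11 -0.11, Ugt2b1 0.022, Ugt8 0.11, Akr1c13 -4.3e-05, Cyp4a8 -0.33, Sult1c3 0.078, Cyb5r3 -0.070, Rarg -0.035, and at 4 h Cyp2a1 0.38, Akr1b1 0.0068, Adh1c 0.27, Nfe2l2 -0.25, and at 8 h Akr1c13 -0.016, Cyp26a1 0.020, Cyp4f1 -0.17, Keap1 -0.10, and at 24 h Hsd17b8 0.20, Sult1a1 -0.019, Star -0.12, and for the difference between 12 and 4 h Akr1b1 -0.082. Aldh2 in saline testis was -1.75 without the 6 arrays with a saturated reference, a setting chosen after seeing the data. Signal over background limits the dim probes: 83 members were above background on some saline arrays only and 1 on none.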
